A study of Mus musculus with 26 samples.

Results

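The clock proteins PER, CRY and BMAL1 are controlled after translation by kinases that phosphorylate them, by a phosphatase that removes phosphate, by ubiquitin ligases that mark them for the proteasome and by a deubiquitinase that removes the mark. The transcripts of 9 such regulators were followed in mouse choroid plexus (ChP), the epithelium that secretes cerebrospinal fluid. They were chosen by symbol from a list of such regulators, and all 9 were found among the 55416 genes of the count tables. They are Csnk1d (ENSMUSG00000025162), Csnk1e (ENSMUSG00000022433), Csnk1a1 (ENSMUSG00000024576), Csnk2a1 (ENSMUSG00000074698), Ppp1cb (ENSMUSG00000014956), Btrc (ENSMUSG00000025217), Fbxw11 (ENSMUSG00000020271), Fbxw7 (ENSMUSG00000028086) and Usp2 (ENSMUSG00000032010). All 9 also passed the minimum of expression for the tests, a mean of at least 1 CPM (counts scaled to library size) in both groups, as did 13697 genes in all. No gene positions are given, because the reference annotation used here is of GRCm38 and the counts were made on GRCm39.

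The ChP of the fourth ventricle was sampled from adult male mice. The Ctrl group comprised 12 sham-operated C57Bl6J mice and the SCNx group 12 C57Bl6J mice whose suprachiasmatic nuclei (SCN), the seat of the central circadian pacemaker, had been destroyed surgically and whose locomotor rhythm in darkness was lost. In both groups 1 mouse was killed every 4 h from circadian time (CT) 0 to CT44 in constant darkness, so that every library is 1 mouse and each clock time was met on 2 days. The KO group was 1 mouse at Zeitgeber time (ZT) 7 and 1 at ZT18 in a light-dark cycle, both FoxJ1-ERT2-Cre+/-; Bmal1fl/fl and fed tamoxifen, in which the Foxj1 promoter directs recombination of Bmal1 to cells with motile cilia. These KO samples were cut by laser from frozen brain and sequenced with another library kit. The paper gives an older age for the KO mice and describes no brain surgery on them. Genotype, age, surgery, laboratory, light cycle, dissection, RNA quality and kit therefore cannot be told apart in any comparison of KO with the other groups. The targeted gene itself, listed as Arntl, was at 11.04 CPM at ZT7 and 8.95 CPM at ZT18 in KO, within the range of 2.01 to 39.4 CPM of Ctrl. Such gene-level counts do not check the deletion, since a transcript lacking the floxed part is still counted.

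Libraries of Ctrl held 38751162 to 47335226 estimated counts, those of SCNx 41807000 to 49527614 and those of KO 17425176 and 18059213. The 10 markers of ChP epithelium summed to between 145343 and 169823 CPM in Ctrl, between 107297 and 170020 in SCNx, and to 91347 and 79855 in KO, with none at 0. Libraries Ctrl CT4 and SCNx CT32 stood apart by neuronal and glial transcripts. The 10 neuronal markers summed to 366 CPM in Ctrl CT4 and 527 CPM in SCNx CT32, against medians of 19.1 and 17.3, and 9 of 10 and 7 of 10 of them had their highest value there, while Gabra6 was at 0 in at least 1 library of both groups. In KO they summed to 311 CPM at ZT7 and 364 CPM at ZT18. Libraries Ctrl CT16 and SCNx CT0 held hepatocyte transcripts, 2857 and 12219 CPM over 12 markers against medians of 1.003 and 3.54, with all 12 highest there. SCNx CT44 held blood transcripts, 5476 CPM over 4 markers against a median of 437 in SCNx. The tests were repeated without the neuronal and the hepatocyte libraries. In such tissue samples, fewer cells of a type and less RNA per cell cannot be told apart.

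In the molecular clock, CLOCK and BMAL1 activate the Per and Cry genes, and the PER and CRY proteins return to the nucleus and repress their own transcription. The length of the cycle depends on how long PER and CRY last. Casein kinases of the CK1 family phosphorylate PER, phosphorylated PER is recognised by the F-box proteins BTRC and FBXW11 of SCF ubiquitin ligases, and mutations of CK1 shorten or alter daily rhythms in rodents and people. All of these steps act on proteins, and the present data measure RNA only.

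Of the 9 regulators, 2 were rhythmic in Ctrl. Usp2, a deubiquitinase that acts on PER1, CRY1 and BMAL1, had the largest daily change, with a peak near CT13.8 and a fitted peak-to-trough ratio of 1.67-fold (adjusted p = 0.0337). Csnk1d, which encodes the PER kinase CK1δ, peaked near CT17.5 with a ratio of 1.13-fold (adjusted p = 0.0214). In SCNx none of the 9 was rhythmic. The difference of the rhythm between SCNx and Ctrl passed the test for none of the 9, nor did a difference in mean level. Adjusted p-values are those of edgeR's quasi-likelihood test after Benjamini-Hochberg correction for all 13697 genes, with a threshold of 0.05, unless another tool is named. A rhythm was a 24 h cosine curve with its own mean, amplitude and peak for each group. The spread around the curves was estimated from the 24 libraries of both groups together. In this fit, the SE, interval and p-value of a group therefore also carry the spread of the other group.

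These counts are to be read against all genes. In Ctrl, 10.7% of the 13697 genes were called rhythmic, beside 2 of the 9 regulators. Leaving out 1 library, this share ranged from 6.7% without Ctrl CT44 to 16.6% without SCNx CT32. Over all fits run, the share ranged from 2.77% with no filter on low counts to 21.7% without Ctrl CT4, Ctrl CT16, SCNx CT0 and SCNx CT32. In SCNx 0% were called, in the test of a difference between the rhythms 2.12% (1.19% without SCNx CT16, 3.44% without SCNx CT32), and in the test of levels 0%. At an unadjusted p under 0.05 the edgeR calls were 24.8% of genes in Ctrl, with 2 of 9 regulators, 14.8% in SCNx, with 1 of 9 regulators (Btrc), 15.1% for the difference, with 2 of 9 (Fbxw7 and Csnk1d), and 9.37% for the level, with 0 of 9. DESeq2 called none of the 9 in SCNx, in the difference or in the level after adjustment. The median amplitude over the 9 in Ctrl was 0.06 on the log2 scale, against 0.11 over all genes tested, which were not matched for abundance. In the same libraries all 9 clock genes of a reference list (Per1, Per2, Per3, Cry1, Cry2, Arntl, Clock, Nr1d1 and Nr1d2) were rhythmic in Ctrl with a median amplitude of 1.24, and 0 of 9 in SCNx, where 2 of 9 had an unadjusted edgeR p under 0.05.

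The transcripts differed in abundance. Per kilobase of merged exon, with gene models of GRCm38, the mean level over the 12 Ctrl libraries was 36.2 ± 8.5 CPM per kb (SD, n = 12) for Usp2, followed by Fbxw11 with 28.0 ± 1.3. Csnk1d followed with 23.6 ± 1.3 and Csnk2a1 with 20.7 ± 0.73. Csnk1a1 had 18.6 ± 0.66 and Ppp1cb 14.3 ± 0.63. Below these lay Fbxw7 with 5.11 ± 0.48, Csnk1e with 3.17 ± 0.28 and Btrc with 2.09 ± 0.066 CPM per kb. Of neighbours in this order, only Usp2 and Fbxw11 were closer together than the larger SD of the pair. The order was the same in SCNx, where Usp2 had 31.6 ± 4.8 and Btrc 2.14 ± 0.19 CPM per kb. Merged exons include rarely used ends and so understate genes with long alternative ends such as Btrc, whose merged exons span 16908 bases. With reads of this length, Csnk2a1 and Ppp1cb are less certain than the rest. Of all 50-base words of their transcripts, 32.5% occur in another gene model for Csnk2a1 (mostly Gm10031) and 16.4% for Ppp1cb (Gm43312). For Csnk1d, Csnk1e, Csnk1a1, Btrc, Fbxw11, Fbxw7 and Usp2 this share was at most 3.13%, and no word was shared among Csnk1d, Csnk1e and Csnk1a1 or between Btrc and Fbxw11.

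Most of these genes were steady between mice. In Ctrl the coefficient of variation over the 12 libraries was below the median of all genes tested, 9.84%, for 8 of 9, from 3.17% for Btrc to 9.33% for Fbxw7, and was 23.4% for Usp2. In SCNx 7 of 9 lay below the median of 11.1%, the exceptions being Usp2 with 15.1% and Csnk1e with 16.6%. Each value of Ctrl and SCNx rested on at least 736 counts, where counting error alone gives about 3.32% for Csnk1e, the lowest counted, and 1.08% for Csnk1a1. For Btrc in Ctrl, counting error of 2.55% made up most of the 3.17%. All genes tested reach down to a mean of 1 CPM, where counting error is larger. Their medians were not matched to the 9 regulators for abundance.

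The casein kinases 1 were taken first, because they prime PER for degradation. Csnk1d ranged from 104.4 CPM at CT4 over a median of 119 to 127 CPM at CT20 in Ctrl. Both cycles had their highest value late in the subjective night, at CT20 with 127 CPM and at CT44 with 125 CPM, and their lowest in the subjective day, at CT4 with 104.4 CPM and at CT32 with 115 CPM. Amplitude SE were taken from the spread around the curves of both groups. The fitted amplitude was 0.089 ± 0.018 on the log2 scale (SE, 95% interval 0.041 to 0.136), with a peak at 17.5 ± 0.8 h. Fitted to each cycle alone, it was 0.12 in the first and 0.056 in the second, with peaks at 17.3 h and 17.9 h. In SCNx Csnk1d ranged only from 111 CPM at CT32 over 118 to 123 CPM at CT40, the amplitude was 0.015 ± 0.018 (interval 0 to 0.062), and the test of a difference between the rhythms gave an adjusted p of 0.30. Its lowest values in both groups came from the libraries with neuronal transcripts, and without Ctrl CT4 and SCNx CT32 the amplitude was 0.074 in Ctrl (adjusted p = 0.018) and 0.021 in SCNx. The call in Ctrl depended on single mice, as the adjusted p was 0.0589 without Ctrl CT8 and 0.0574 without Ctrl CT44. It was also lost with a linear trend in the model (0.065), with no filter on low counts (0.49) and with clock time as 6 levels (0.24).

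Csnk1e, which encodes the closely related CK1ε, had a mean of 20.9 ± 1.8 CPM in Ctrl, against 118 ± 6.3 CPM for Csnk1d (SD, n = 12). It ranged from 18.4 CPM at CT0 over 20.8 to 24.6 CPM at CT12 in Ctrl, and the highest value of the second cycle, 23.1 CPM, came at the same clock time, CT36. Its amplitude of 0.12 ± 0.066 (interval 0 to 0.30) did not pass the test (adjusted p = 0.43). In SCNx it lay between 17.3 and 21.7 CPM in 11 libraries and at 31.2 CPM in SCNx CT32. This library had the most neuronal transcripts, and it also entered the SE and test of Csnk1e in Ctrl, as the spread was shared. Without Ctrl CT4 and SCNx CT32 the Csnk1e amplitude was 0.15 in Ctrl with an adjusted p of 0.048, and 0.041 in SCNx. The part of neuronal transcripts in its values was not tested further.

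Csnk1a1, which encodes CK1α, another kinase of PER, was the most counted of the 9 and among the steadiest. It ranged from 184 CPM at CT44 over 198 to 205 CPM at CT28 in Ctrl and from 184 CPM at CT0 over 200 to 210 CPM at CT32 in SCNx, and the groups overlapped throughout. Its amplitude was 0.052 ± 0.021 in Ctrl and 0.040 ± 0.021 in SCNx, and neither passed the test (adjusted p = 0.33 and 0.56). Without Ctrl CT4 and SCNx CT32 the amplitudes were 0.047 and 0.030.

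Csnk2a1 encodes the catalytic α subunit of casein kinase 2, which phosphorylates BMAL1. It ranged from 140 CPM at CT12 over 147 to 158 CPM at CT24 in Ctrl and from 138 over 148 to 149 CPM in SCNx. The upper end of the 95% interval of its amplitude, 0.081 in Ctrl, corresponds to a peak-to-trough ratio of 1.12-fold, so that a larger daily change of this transcript was outside the interval. Ppp1cb encodes a catalytic subunit of protein phosphatase 1, which counters the phosphorylation of PER. It ranged from 147 CPM at CT0 over 156 to 170 CPM at CT28 in Ctrl and from 144 over 160 to 173 CPM in SCNx, with amplitudes of 0.0097 ± 0.031 and 0.024 ± 0.031 (adjusted p = 0.97 and 0.86).

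**Figure D1:**
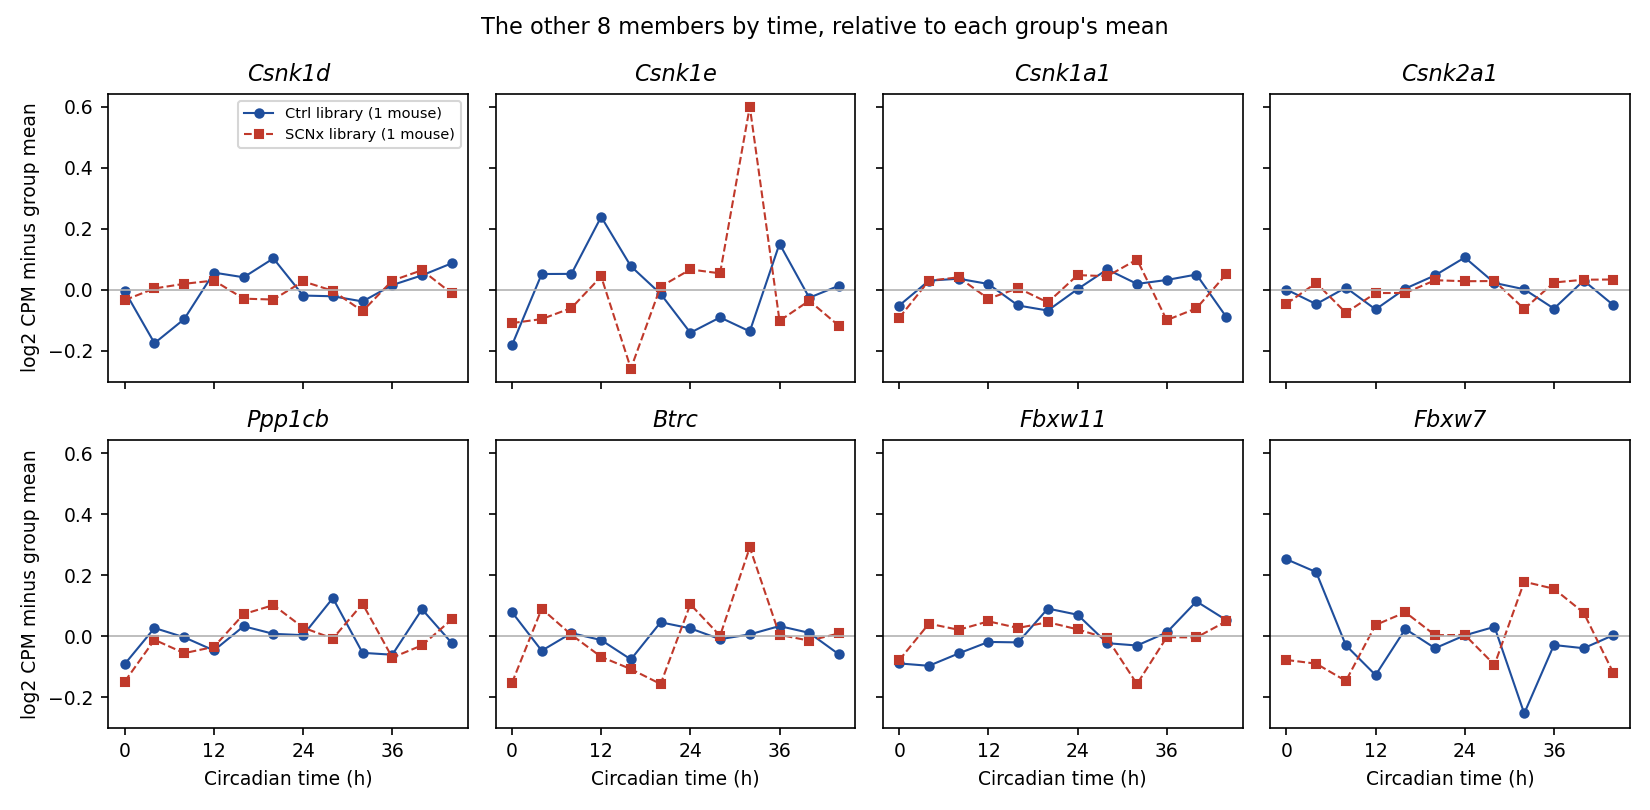
Each panel shows 1 gene, with circadian time (h) on the x axis and log2 CPM minus the mean of the group on the y axis. Each point is 1 mouse, circles and solid lines are Ctrl and squares and broken lines SCNx. Csnk1d was highest at CT20 and CT44 and Csnk1e at CT12 and CT36 in Ctrl, and the highest points of Csnk1e and Btrc in SCNx are both the library SCNx CT32.

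The ubiquitin ligase subunits come next. BTRC and FBXW11, also called β-TrCP1 and β-TrCP2, bind phosphorylated PER. Btrc had the smallest spread of the 9 in Ctrl, from 33.4 CPM at CT16 over 35.5 to 37.3 CPM at CT0. Btrc in Ctrl had an amplitude of 0.013 ± 0.035 (adjusted p = 0.96), an SE that also holds the wider spread of SCNx. In SCNx it ranged from 32.2 CPM at CT0 over 36.2 to 43.8 CPM at CT32, where the next highest value was 38.8 CPM. Its amplitude in SCNx, 0.096 ± 0.035 with a peak near 6.7 h, gave p = 0.041 before and 0.32 after adjustment, and was 0.053 without Ctrl CT4 and SCNx CT32.

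Fbxw11 had a mean of 121 ± 5.8 CPM in Ctrl, against 35.3 ± 1.1 CPM for Btrc (SD, n = 12), and lay between 113 CPM at CT4 and 131 CPM at CT40, with a median of 119. Its values were highest late in both cycles, 129 CPM at CT20 and 131 CPM at CT40. The amplitude of 0.064 ± 0.024 with a peak at 18.0 ± 1.4 h did not pass the test (adjusted p = 0.23). In SCNx Fbxw11 ranged from 107 CPM at CT32 over 122 to 125 CPM at CT12, and the amplitude was 0.032 ± 0.024. The lowest libraries of both groups, Ctrl CT4 and SCNx CT32, were those with neuronal transcripts, and without them the amplitudes were 0.061 (adjusted p = 0.13) and 0.015.

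FBXW7 is the substrate-binding subunit of another SCF ligase, which marks REV-ERBα for degradation. Fbxw7 was highest in the first 2 Ctrl libraries, 42.7 CPM at CT0 and 41.4 CPM at CT4, but the same clock times on the second day gave 35.9 and 36.6 CPM, and the lowest value was 30.1 CPM at CT32. The 2 days differed at a given clock time by 0.14 on the log2 scale on average, and the clock-time means spanned 0.27. The amplitude of 0.11 ± 0.043 did not pass the test (adjusted p = 0.21). In SCNx it ranged from 32.4 CPM at CT8 over 36.0 to 40.3 CPM at CT32. Without Ctrl CT4 and SCNx CT32 the amplitudes were 0.10 in Ctrl and 0.091 in SCNx. The fitted peaks lay at 0.0 h in Ctrl and 13.2 h in SCNx, and the difference between the 2 curves had the smallest p of the 9 genes, 0.012 before and 0.18 after adjustment.

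Usp2 showed the largest daily change. In Ctrl it ranged from 98.3 CPM at CT4 over a median of 172 to 248 CPM at CT36. The 2 libraries at the onset of subjective night, CT12 with 234 CPM and CT36 with 248 CPM, were the 2 highest, and the 2 at CT4 and CT28, with 98.3 and 129 CPM, were the 2 lowest. The other 8 Ctrl libraries lay between 144 and 196 CPM. The clock-time means spanned 1.10 on the log2 scale (2.14-fold) from CT4 to CT12, whereas the 2 days differed at a given clock time by 0.17 on the log2 scale on average. The least-squares amplitude was 0.38 ± 0.10 (interval 0.11 to 0.65), and each cycle alone gave 0.40 and 0.38 with peaks at 14.7 h and 12.9 h.

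In SCNx Usp2 ranged from 110 CPM at CT32 over 156 to 186 CPM at CT8, and the order of the clock times differed between the days. At CT8 and CT32, the same clock time, the values were 186 and 110 CPM, the highest and the lowest of the group. The amplitude was 0.075 ± 0.10 (interval 0 to 0.34), and each cycle alone gave 0.17 with a peak at 7.8 h and 0.11 with a peak at 15.8 h. The SCNx amplitude was lower than that of Ctrl by 0.30 ± 0.14, and the test of the 2 curves gave p = 0.068 before and 0.37 after adjustment, so that a loss of the rhythm was not shown by this test.

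The lowest Usp2 libraries of Ctrl and of SCNx, Ctrl CT4 and SCNx CT32, were those with neuronal transcripts. Without these 2, the amplitude of Usp2 was 0.29 in Ctrl with an adjusted p of 0.014, and 0.17 in SCNx with one of 0.39. SCNx CT44, the library with blood transcripts, was the second lowest of SCNx at 118 CPM, and without it the SCNx amplitude was 0.049. Without Ctrl CT16 and SCNx CT0 the Ctrl amplitude was 0.41 with an adjusted p of 0.031, and without all 4 libraries 0.33 with one of 0.0089. Leaving out 1 library alone ended the call in Ctrl for CT4, CT8, CT12, CT24, CT28, CT36 and CT44, with adjusted p-values of 0.0651, 0.0514, 0.0895, 0.0558, 0.0796, 0.1002 and 0.0549. With a linear trend added to the model the adjusted p was 0.054, and with clock time as 6 levels, which assumes no curve, it was 0.056.

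**Figure D2:**
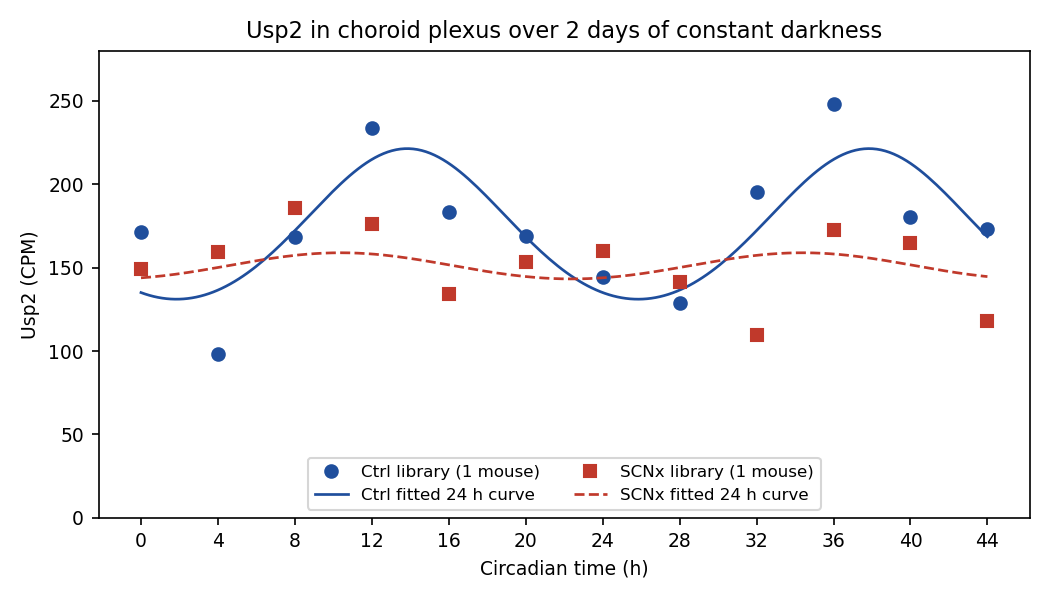
Circadian time (h) is on the x axis and Usp2 in CPM on the y axis, which starts at 0. Each point is 1 mouse (circles Ctrl, squares SCNx), and the lines are the fitted 24 h curves (solid Ctrl, broken SCNx). The highest Ctrl points are CT12 and CT36 with 234 and 248 CPM and the lowest CT4 and CT28 with 98.3 and 129 CPM, while SCNx stayed between 110 and 186 CPM.

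The promoter of Usp2 is shown because this gene had the largest daily change of the 9. The 250 bases before the RefSeq start site were taken from RefSeq on GRCm38.p6, at chr9:44084670-44084919 on the plus strand, and the 3 matches to the GC box GGGCGG are in capitals.

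Usp2: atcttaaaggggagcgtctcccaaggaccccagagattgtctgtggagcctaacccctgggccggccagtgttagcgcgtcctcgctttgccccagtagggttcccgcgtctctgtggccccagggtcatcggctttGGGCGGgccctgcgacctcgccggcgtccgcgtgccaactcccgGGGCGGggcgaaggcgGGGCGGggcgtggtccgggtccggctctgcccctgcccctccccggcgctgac

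On both strands, this window held no match to the E-box CACGTG bound by CLOCK and BMAL1, to CACGTT, to the D-box TTATGTAA, to the half-site AGGTCA of ROR and REV-ERB or to the cAMP response element TGACGTCA, and none to the general form CANNTG that includes both E-boxes. Among all 32851 windows of this length in the table, 6.02% held CACGTG, 3.85% CACGTT, 0.819% TTATGTAA, 14% AGGTCA, 1.55% TGACGTCA, 66.2% CANNTG and 32.7% GGGCGG. Of the 9 annotated Usp2 transcripts, 2 start within 50 bases after this start site and 4 before the window, the first 17899 bases upstream, and the gene-level counts do not show which start was used. Windows of 5 further regulators were found in the table, for Csnk1e, Csnk2a1, Fbxw11, Fbxw7 and Ppp1cb. None of these held either E-box or the D-box, and the half-site occurred in the window of Ppp1cb alone.

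**Figure D3:**
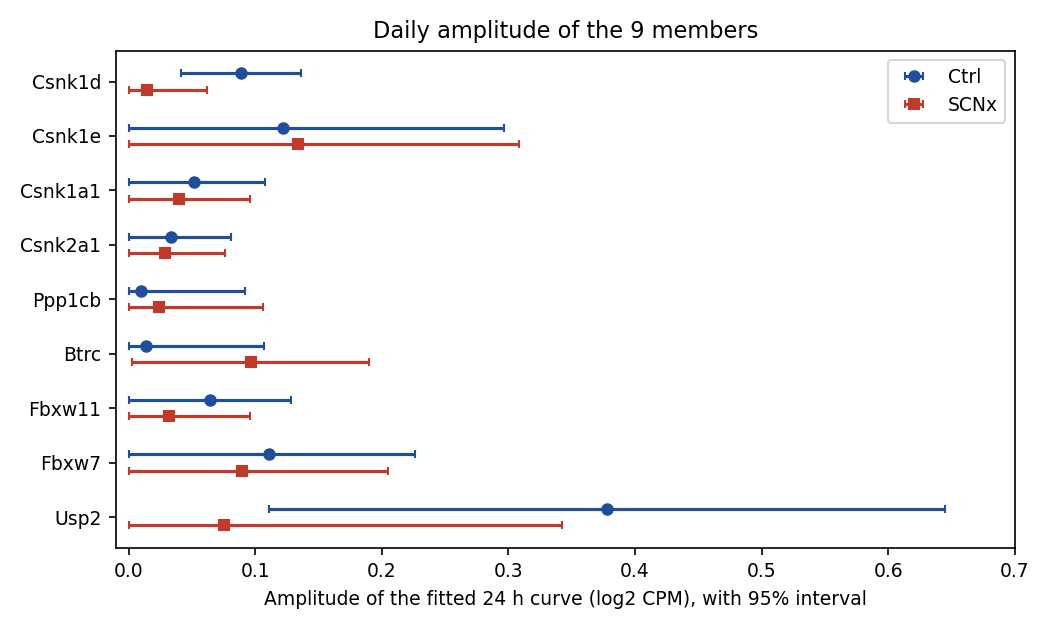
The amplitude of the 24 h curve fitted to log2 CPM (x axis) is shown for each gene (y axis), circles for Ctrl and squares for SCNx. Bars are the 95% interval, from 12 libraries a group and the spread shared by both groups. The Ctrl intervals of Csnk1d (0.041 to 0.136) and Usp2 (0.11 to 0.65) start furthest above 0. Those of Fbxw11 in Ctrl (0.00015 to 0.128) and Btrc in SCNx (0.0025 to 0.190) start just above it, and the intervals of the 2 groups overlap for every gene.

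The fitted peak times can be set beside those of the clock genes whose proteins these enzymes act on. In Ctrl, Usp2 at 13.8 h lay between Per1 at 13.7 h and Per2 at 14.8 h, and Cry2 peaked at 12.5 h. Csnk1d peaked at 17.5 ± 0.8 h and Cry1 at 18.4 ± 0.3 h (SE), so that their order was not settled, while Arntl peaked at 22.8 h. With SE of 1.0 h for Usp2, 0.5 h for Per1 and 0.4 h for Per2, the peaks of Usp2, Per1 and Per2 were not told apart. The genes most like Usp2 over the 12 Ctrl libraries, by the root mean square difference of log2 CPM from each gene's mean, were Jph1 (0.138), Zfp467 (0.144) and Cish (0.151), against 0.342 for the spread of Usp2 itself. The genes most like Csnk1d were Cog4 (0.025), Abcf1 (0.035) and Spg20 (0.036), against 0.075.

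The mean level over all times was compared between the groups with a model of group means only. The daily change of a gene, such as that of Usp2 in Ctrl, therefore remained in its SE and interval. No regulator passed the test of level between SCNx and Ctrl, and neither did any other gene, with 0% of the 13697 called. Usp2 had the largest difference, with means of 175 ± 41 CPM for Ctrl against 152 ± 23 CPM for SCNx (SD, 12 mice each), a log2 fold change of −0.20 ± 0.11 (SE, adjusted p = 0.61) with a 95% interval of −0.44 to 0.04. Ppp1cb was at 156 ± 6.8 CPM in Ctrl and 161 ± 8.4 in SCNx, a log2 fold change of 0.05 ± 0.03 (adjusted p = 0.65). For Csnk1d, Csnk1a1, Fbxw11 and Csnk2a1 the 95% interval lay within −0.061 to 0.065, which leaves room for a difference of at most 1.05-fold. For Fbxw7 it was −0.10 to 0.10, for Btrc −0.05 to 0.12 and for Csnk1e −0.15 to 0.15. The median log2 fold change over the 9 was −0.001, against 0.011 over all genes tested.

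**Figure D4:**
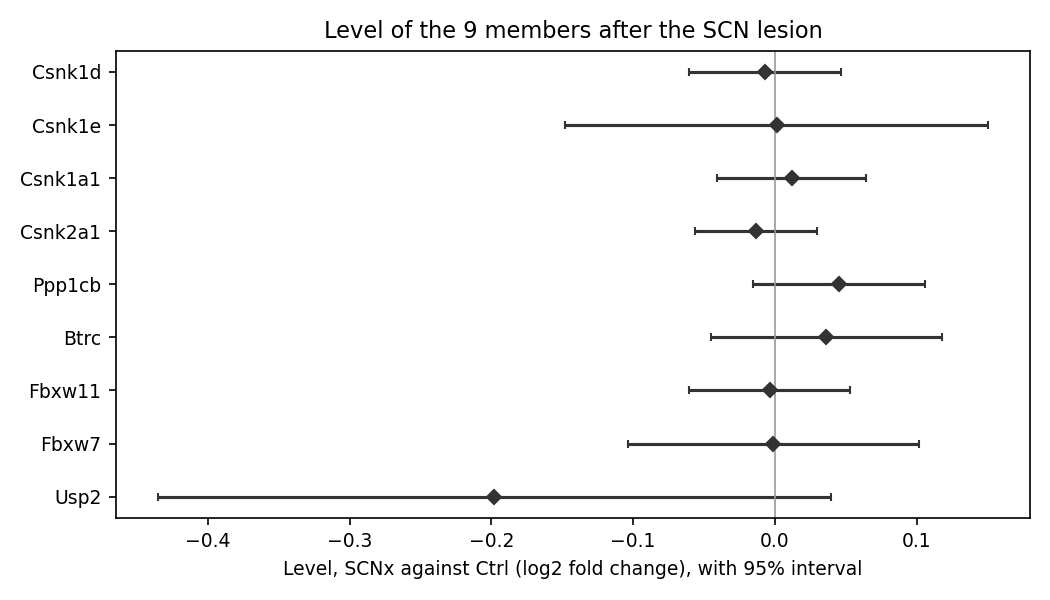
The log2 fold change of the mean level in SCNx against Ctrl (x axis) is shown for each gene (y axis), with bars for the 95% interval over 24 libraries. Every interval includes 0, and that of Usp2 is the widest, from −0.44 to 0.04.

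In KO the 2 libraries allow values only. Night minus day at ZT18 and ZT7 was compared with the same difference between 4 night libraries (CT16, CT20, CT40, CT44) and 2 day libraries (CT8, CT32) of Ctrl and of SCNx. Usp2 was at 122 CPM (exact Poisson 95% interval 117 to 128) at ZT7 and 124 CPM (119 to 130) at ZT18, a log2 difference of 0.02. The same difference was −0.04 in Ctrl and −0.02 in SCNx. As Usp2 peaked between these times, the contrast of night and day says little about it: the curve fitted to Ctrl gave 0.26 between CT7 and CT18.

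Csnk1d was at 45.7 CPM (42.5 to 49.1) at ZT7 and 53.7 CPM (50.4 to 57.1) at ZT18 in KO, a difference of 0.23 (counting interval 0.09 to 0.37), beside 0.14 in Ctrl and 0.02 in SCNx. Ppp1cb and Csnk2a1 were lower at ZT18, with 192 and 137 CPM for Ppp1cb and 110 and 87.0 CPM for Csnk2a1, differences of −0.49 and −0.33 beside 0.06 and 0.003 in Ctrl. Both share sequence with other gene models, as given above. Csnk1a1 gave −0.05 in KO and −0.07 in Ctrl, Fbxw11 −0.02 and 0.10, Fbxw7 0.14 and 0.13, Btrc 0.07 and −0.03, and Csnk1e 0.10 and 0.06. The Ctrl values depended on the libraries taken, as the fitted Ctrl curve gave 0.026 for Fbxw7, 0.019 for Csnk1e, 0.0061 for Ppp1cb and 0.17 for Csnk1d. The library SCNx CT32 was 1 of the 2 day libraries of SCNx, and without it the SCNx difference moved from −0.37 to −0.041 for Csnk1e, from −0.22 to −0.072 for Btrc, from −0.0064 to 0.16 for Fbxw7, from 0.097 to 0.0084 for Fbxw11 and from −0.018 to −0.39 for Usp2. It moved from 0.02 to −0.022 for Csnk1d, from −0.082 to −0.052 for Csnk1a1, from 0.024 to 0.11 for Ppp1cb and from 0.091 to 0.097 for Csnk2a1. Without Ctrl CT16, the Ctrl difference became 0.13 for Fbxw11, 0.034 for Csnk1e, −0.0091 for Btrc and −0.060 for Usp2. No regulator moved by 0.03 or more. The intervals cover counting error only and not the difference between 2 mice. Over the 15050 genes with a mean of at least 1 CPM in KO, the median absolute difference between the 2 libraries was 0.24. The scaling bears on all of these values alike, since without TMM factors each KO difference was 0.13 higher, and that of Csnk1d became 0.36. The summed neuronal, astrocyte and oligodendrocyte markers were also higher at ZT18 than at ZT7 (364 and 311, 977 and 917, 427 and 321 CPM). So were the fibroblast (395 and 267 CPM) and endothelial sums (203 and 169 CPM). Of these lists, Pvalb, Nefl, Tubb3, Aqp4, Slc1a2, Gja1, Mog and Lum were lower at ZT18. Gfap rose from 99.6 to 153 CPM. The part of these cell types in the values of the regulators was not tested.

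**Figure D5:**
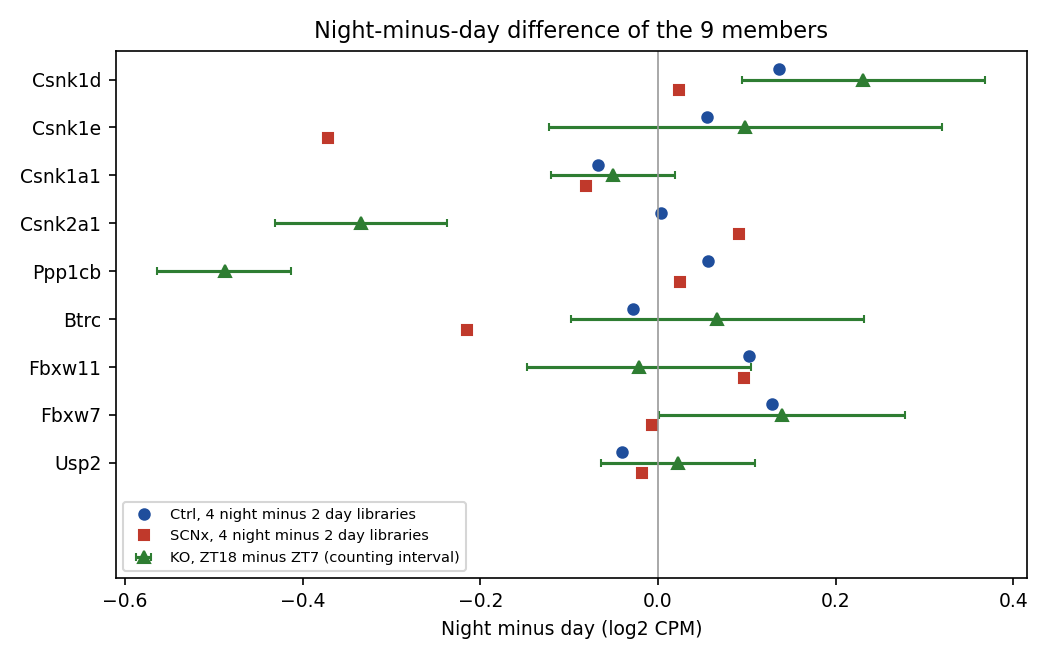
The night-minus-day difference in log2 CPM (x axis) is shown for each gene (y axis), with triangles for KO (1 mouse a time, bars for the 95% counting interval), circles for Ctrl and squares for SCNx (4 night and 2 day libraries each). Ppp1cb and Csnk2a1 lie at −0.49 and −0.33 in KO and between 0.003 and 0.091 in the other groups, and Csnk1e in SCNx lies at −0.37, where SCNx CT32 is 1 of the 2 day libraries.

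Beyond the 9, a list of 42 further enzymes and cofactors of the same kind was examined, with other kinases (GSK3, AMPK, JNK, p38, ERK), phosphatases, F-box proteins and cullins, deubiquitinases and the enzymes of O-GlcNAc. Of these, 41 were tested, as Dtl was below the minimum. In Ctrl 3 of 41 were rhythmic (10.7% of all genes) and in SCNx 0 of 41 (0%). The test of a difference in rhythm (2.12%) or in level (0%) was passed by 0 of 41. At an unadjusted p under 0.05, edgeR gave 6 of 41 in Ctrl, 3 in SCNx, 6 for the difference of the rhythm and 3 for the level, beside 24.8%, 14.8%, 15.1% and 9.37% of all genes. DESeq2 called 4 of 41 in Ctrl, beside 2053 of 13697 genes, and 0 in the other tests after adjustment. Ddb1, the adaptor of CUL4 ubiquitin ligases, peaked at 4.5 h with an amplitude of 0.20 ± 0.047 (adjusted p = 0.0223). Prkaa1, a catalytic subunit of the energy sensor AMPK that phosphorylates CRY1, peaked at 10.5 h with 0.14 ± 0.035 (adjusted p = 0.0298). Mapk9, the JNK2 kinase that acts on the CLOCK and BMAL1 complex, peaked at 22 h with 0.14 ± 0.036 (adjusted p = 0.0341). Of 36 other fits, the call was lost in 5 for Ddb1 and in 8 each for Prkaa1 and Mapk9. Without Ctrl CT20 alone, 0 of 41 were called (7.79% of all genes). The fitted peaks of Ddb1, Prkaa1, Mapk9, Csnk1d and Usp2 were spread over the cycle. The median amplitude over the 41 was 0.06 in Ctrl and 0.06 in SCNx, against 0.11 and 0.09 over all genes tested, again not matched for abundance.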

How the data were processed

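ChP RNA of 12 Ctrl, 12 SCNx and 2 KO mice was sequenced. The authors aligned reads to GRCm39 and deposited estimated counts per gene (per the submitters' processing notes, Salmon 1.9.0), not normalized, which were rounded here. The counting was not stated to use strand, so antisense overlaps cannot be told apart. CPM were scaled with TMM factors. One edgeR 4.0.16 model (R 4.3.3) with a mean and 24 h cosine and sine terms for each group covered the 24 libraries, and a second had only group means. Genes below 1 CPM on average in either group were left out. Amplitude SE and intervals came from least squares on log2 CPM (prior count 1), with both groups in the same fit. Intervals came from the joint 95% region of cosine and sine. The fold and tests came from edgeR. Alternatives used DESeq2 1.42.0, limma 3.58.1 and other filters, terms and libraries. Scripts were tested on simulated data. Python 3.11.15, scipy 1.17.1 and matplotlib 3.10.9 served for the rest. Named genes were the 9 members, pathway genes called in a test, clock genes for peak times, and the 3 genes most like each rhythmic member. Members and lists were chosen with earlier results of these data known.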

Additional observations from a re-analysis of the deposited data

How the results depend on the processing

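Of the 9 regulators, 2 were rhythmic in Ctrl with DESeq2 (15% of all genes), DESeq2 size factors (10.7%) and limma-trend (10%). The count was also 2 with a minimum of 0.5 CPM (10%) or 5 CPM (13.4%). It stayed at 2 with Ctrl fitted alone (14.6%) and without Ctrl CT16 and SCNx CT0 (12.3%). There was 1 with no filter on low counts (Usp2), where 2.77% of all genes were called, 0 with a linear trend (10.6%), 3 without Ctrl CT4 and SCNx CT32, (16.5%), and, chosen after seeing the data, 0 with clock time as 6 levels (4.26%) and 3 without all 4 libraries (21.7%). Leaving out 1 library gave 0 to 2. In SCNx, in the difference of the rhythm and in the level, the count was 0 in every fit run. With no filter, 3.44% of all genes were called in SCNx, 1.62% for the difference and 0% for the level. Without SCNx CT24 0.0438% were called in SCNx, and without SCNx CT32 0.0222% for the level. For the difference, the share over all fits ran from 0.569% (6 levels) to 4.79% (without all 4 libraries). Over the pathway list, the 3 in Ctrl became 0 with no filter and with 6 levels, 5 without Ctrl CT16 and SCNx CT0 (12.3% of all genes), 5 without Ctrl CT4 and SCNx CT32, 9 of 41 without all 4, beside the shares just given, and 0 to 4 leaving out 1 library. Its difference of the rhythm, 0, became 1 with a trend (2.49% of all genes), 2 without Ctrl CT16 and SCNx CT0 (1.57%), 6 without all 4 (4.79%) and 0 to 2 leaving out 1 library. Over all 13697 genes DESeq2 called 2053 rhythmic in Ctrl, 432 in SCNx, 589 with different rhythms and 7 with different levels, where edgeR called 1459, 0, 291 and 0. The causes were not tested.

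Log2 fold changes of the level close to 0 changed sign, none of them past the test. Csnk1e was −0.0092 with limma-trend, −0.014 with no filter, −0.0012 with a minimum of 0.5 CPM, −0.010 with circadian time as a block, −9.7e-05 in the cosine model, −0.066 without Ctrl CT4 and SCNx CT32 and −0.049 without all 4 libraries. Fbxw7 was 0.00080 with limma-trend, 0.00074 with the block, 0.0077 without Ctrl CT16 and SCNx CT0 and 0.012 without all 4, and Fbxw11 was 0.0013 and 0.0070 in these last cases. Csnk1a1 was −0.00070 with no filter and Btrc −0.00099 without Ctrl CT4 and SCNx CT32. Leaving out 1 library, the ranges were −0.024 to 0.00092 for Csnk1d, −0.070 to 0.024 for Csnk1e, −0.0014 to 0.021 for Csnk1a1, −0.014 to 0.0059 for Fbxw11 and −0.023 to 0.024 for Fbxw7. In KO, library sizes without TMM factors raised every night-minus-day difference by 0.13, to 0.077 for Csnk1a1, 0.11 for Fbxw11, 0.15 for Usp2, −0.21 for Csnk2a1, −0.36 for Ppp1cb, 0.36 for Csnk1d, 0.27 for Fbxw7, 0.23 for Csnk1e and 0.19 for Btrc. The labels give no replicate numbers. With circadian time as a block, which pairs the mice of a time point, 0 of 9 regulators passed the test of level (0% of all genes). At this depth, counting error was 2.55% of the level for Btrc and 3.32% for Csnk1e in Ctrl.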
